A study of Mus musculus with 4 samples.

Results

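DNA replication and chromatin assembly genes encode the machinery that copies the genome in S phase and packs the new DNA into nucleosomes. The set described here holds 49 mouse genes, chosen by name from that machinery, and 29 of them carried at least 1 of the 506952 positions in the deposited table. The 29 genes held 1976 of these positions, and 0 of the 1976 also carried the label of another gene. The table is a list of positions called as unconverted after bisulfite treatment of poly(A) RNA, and by its name it keeps those unique to Tet2 knockout (KO) cells. Libraries were made from 2 samples labelled Tet2 KO and 2 labelled wild type (WT) of NRAS/AE9a leukemic cells, a mouse acute myeloid leukemia line that carries NRAS and AE9a in both genotypes. All samples grew with the cytokines IL-3 and IL-6 (10 ng/ml of each) and SCF (50 ng/ml), and under drug selection with puromycin (2 µg/ml) and G418 (1 mg/ml). The labels name neither the NRAS allele nor the deleted part of Tet2, nor where the replicates came from, so the spread between replicates may be technical. Since 0 columns hold WT values and 0 hold a single library, KO could not be tested against WT, and every value below describes the KO libraries.

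Replication starts when the origin recognition complex loads the MCM helicase with the help of Cdc6 and Cdt1, in a step called licensing. The kinase Cdc7 then allows Cdc45 and the GINS complex to join MCM and form the moving helicase, after which primase and the replicative polymerases copy the strands on the sliding clamp Pcna. Behind the fork, the chaperones CAF-1 and Asf1 place histones on the new DNA. In proliferating leukemia cells the transcripts of this machinery are typically abundant in S phase. Bisulfite converts unmodified cytosine in RNA to uracil, whereas 5-methylcytosine, the base that TET enzymes such as Tet2 oxidise, stays cytosine. What is called the level here is the deposited share, from 0 to 1, of the reads used at a position that kept a cytosine. The lowest level in the table is 0.2 and the lowest coverage 10 reads, so a gene with 0 listed positions may be unmodified, poorly covered or filtered.

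The bases at the listed positions could be read where RefSeq promoter windows or miRNA hairpins of the same build (GRCm38.p6, which is mm10) overlap them, and many were not cytosine. Of 6037 plus-strand positions in the whole table that could be read, 3138 (52.0%, exact 95% interval 50.7 to 53.2) were C in the reference, 1811 were G, 1088 were A and 0 were T. Those read are few of the 502191 plus-strand positions and lie in such windows or hairpins, so the share cannot stand for the others. The base just before a listed plus-strand position was T in 17.7% of cases and the base just after it in 18.9%, so T was missing at the listed position itself and not from the neighbouring sequence. On the minus strand 132 of 146 positions read (90.4%, exact interval 84.4 to 94.7) were C on the strand of the site. Plus-strand positions at C had a median level of 0.7 and were called in both KO replicates in 18.8% of cases. Positions at G had a median level of 0.667 and a share in both of 9.11%, and those at A had 0.6 and 9.83%. Coverage differed as well, with a median of 19 reads at C and 15 at both G and A. The part of coverage in these shares was not tested. Why calls fall on G and A was not tested, and the word position is used below for what the table lists, without taking each one to be a methylated cytosine.

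Among the replication genes, 14 listed positions in 4 genes could be read in this way, of which 4 were C, 7 were G and 3 were A. They are few of the 1976 positions of the set and all lie in promoter windows, so they cannot stand for the positions that were not read. Each line gives 30 bases of the plus strand of GRCm38.p6, 5′ to 3′, credited to RefSeq, and capitals mark the listed positions. The stretches are chr10:53596960-53596989 at the start of Asf1a, chr11:98907963-98907992 in Cdc6, chr17:56040436-56040465 at the start of Chaf1a, and chr7:13278888-13278917 in Lig1, which lies in the promoter window of the minus-strand gene Zswim9.
Asf1a: ctgctaGttatcaggGcagaatggGctgta
Cdc6: aggtctggtgtcCagagAggtgaggctggt
Chaf1a: gcagcctggccgcccgactgaagCctgagc
Lig1: ggtttgCgtctCtgagcgaGcGagcgagcg
The 3 positions of Asf1a in this stretch were all G, with levels of 0.8, 0.471 and 0.25. In Cdc6 the C had 6 unconverted reads of 11 used (0.545) and the A had 8 of 10 (0.8). The Chaf1a position, 43 nt from the gene start, was a C with 10 of 10 reads unconverted (Wilson 95% interval 0.722 to 1). In Lig1 the C positions had levels of 0.6 and 0.9, and the G positions 0.967 and 1. Levels of 0.8 or more thus stood on C, on G and on A in these genes, and each of the 10 positions shown rested on 10 to 20 reads. The positions read outside these stretches all had levels below 0.8. They were a G in Asf1a (0.552), a G in Cdc6 (0.429) and A positions in Lig1 (0.222 and 0.421).

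Which genes of the set had listed positions followed the genomic strand of the gene. RefSeq promoter entries gave the strand of 42 of the 49 genes. Of the 17 plus-strand genes, 17 had positions, against a background of 51.4% of all plus-strand protein-coding genes. Of the 25 minus-strand genes, 7 had positions (28.0%), against a background of 18.5% of minus-strand protein-coding genes. The remaining 7 genes (Mcm4, Gins1, Gins2, Gins4, Prim2, Pole and Rfc2) had no entry. Among them Gins1, Pole and Rfc2 had positions on the plus strand, Mcm4 and Prim2 had them on the minus strand, and Gins2 and Gins4 had 0. Over all 49 genes the share with a position was 59.2%, against 34.2% of all protein-coding genes. These backgrounds include genes that the cells may not express, and more RNA of a gene and more modification of it cannot be told apart in a count of positions. In the whole table, 99.1% of positions were on the plus strand, and 0 of 395148 pairs of a position and a gene of known strand were on the strand opposite to the gene. The gene labels are the submitters' own and may have been given only on the strand of the gene. That 0 may thus be fixed by the labelling, and it tells nothing of whether the calls are right.

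**Figure D1:**
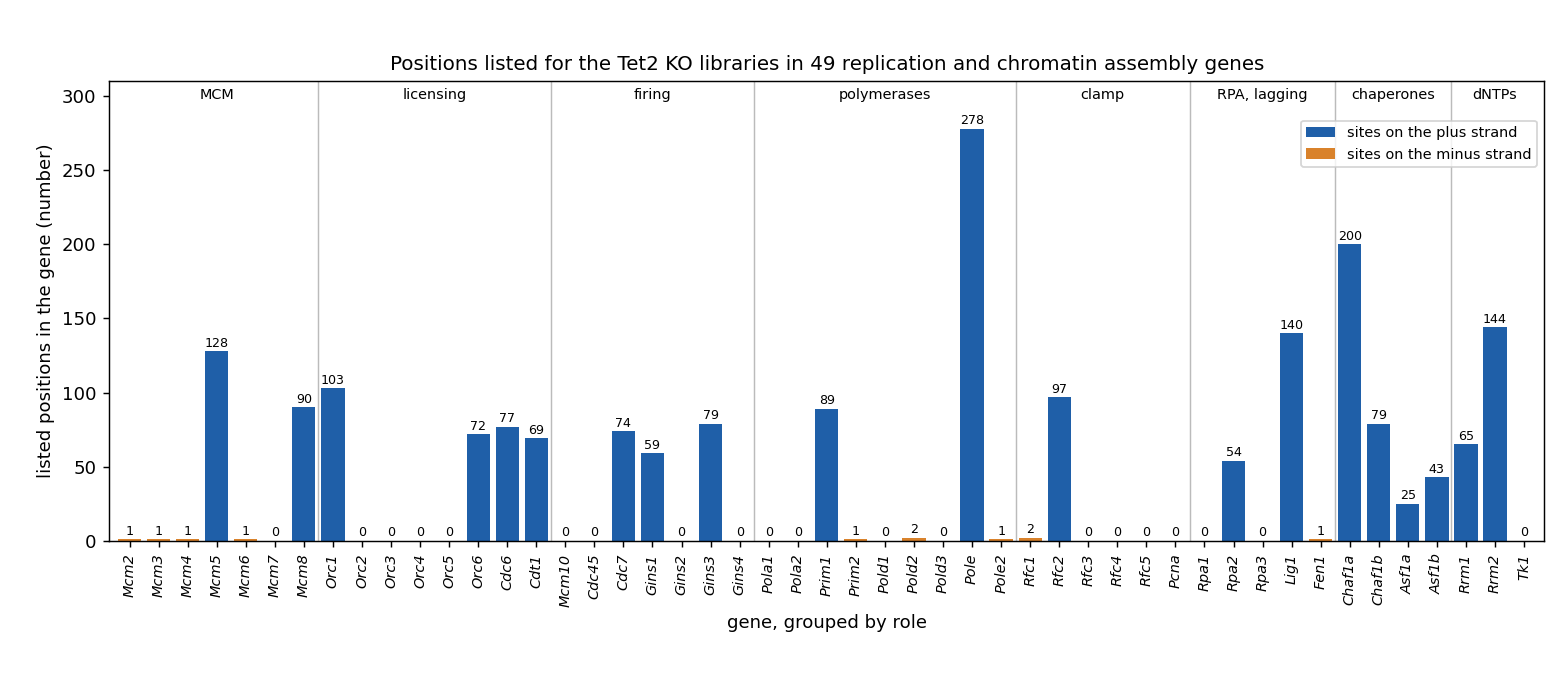
Number of listed positions (y axis) in each of the 49 genes (x axis, grouped by role), with bars coloured by the strand of the positions. The 20 genes with plus-strand positions have 25 to 278 each, and the 9 genes with minus-strand positions have 1 or 2.

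The 20 genes with plus-strand positions held 1965 of the 1976, with a median of 79 per gene, against a median of 68 over 5771 gene labels with plus-strand positions. The 9 genes with minus-strand positions held 11. All 20 genes of the first kind had at least 1 position called in both KO replicates, among them 17 of 17 genes with a plus-strand RefSeq entry, against a background of 47.8% of plus-strand protein-coding genes. Of the 25 minus-strand genes, 0 had such a position, against a background of 1.32% of minus-strand protein-coding genes, and 0 of the 11 minus-strand positions were called in both. The plus-strand positions had a median level of 0.518 with quartiles of 0.382 and 0.7, against 0.529 with quartiles of 0.37 and 0.7 for all labelled plus-strand positions. They were covered by 10 to 137 reads with a median of 17, and 12 reads, at the median, entered the level. Single levels are therefore loosely determined, and only 264 of the 1657 plus-strand positions called in 1 replicate had 20 or more reads used.

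In the MCM helicase family, 6 of 7 genes had positions, against 34.2% of all protein-coding genes. Nearly all of these positions were in Mcm5 and Mcm8, the genes of this family with a plus-strand entry. Mcm2, Mcm3, Mcm6 and Mcm7 are on the minus strand, so the contrast between subunits cannot be told apart from strand. Mcm5, a subunit of the replicative helicase ring, had 128 positions with a median level of 0.566, of which 16 were called in both replicates. Mcm8, which encodes an MCM-related helicase with a role in recombination and not a subunit of that ring, had 90, of which 27 were called in both, the highest such share among the 20 genes. The highest positions with 20 or more reads used were unconverted in 15 of 20 reads in Mcm5 (0.75, Wilson interval 0.531 to 0.888) and in 20 of 24 in Mcm8 (0.833, 0.641 to 0.933). Both were called in only 1 KO replicate, as were the positions named by this rule (called well-read) below, except in Rfc2. Among positions called in both replicates, the highest level was 0.955 in Mcm5 and 0.863 in Mcm8, each at about 10 reads used. The other ring subunits Mcm2, Mcm3, Mcm4 and Mcm6 had 1 position each, on the minus strand, and Mcm7 had 0. The level was 0.222 in Mcm2 (4 of 18 reads), 0.238 in Mcm3 (5 of 21), 0.2 in Mcm4 (7 of 35) and 0.2 in Mcm6 (2 of 10). These positions were covered by 64 reads in Mcm2, 48 in Mcm3, 67 in Mcm4 and 19 in Mcm6, and the positions of Mcm5 by a median of 16.

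Among origin recognition and licensing genes, Orc1, Orc6, Cdc6 and Cdt1 had positions and Orc2, Orc3, Orc4 and Orc5, all on the minus strand, had 0. Orc1, the largest ORC subunit, had 103 positions, Cdc6 had 77, Orc6 had 72 and Cdt1 had 69. Cdt1, which brings MCM to the origin, had the highest median level of the 20 genes at 0.697, with quartiles of 0.5 and 0.8, whereas Orc6 had 0.465 with quartiles of 0.326 and 0.638. These interquartile ranges overlap. The highest Cdt1 position with 20 or more reads used had 23 of 24 reads unconverted (0.958, interval 0.798 to 0.993) and lay at the 3′ end of the gene. In Orc1 the corresponding position had 20 of 24 reads (0.833, interval 0.641 to 0.933). Cdt1 spans only 5.12 kb and had 13.5 positions per kb of gene, against 2.56 in Orc1, which spans 40.3 kb.

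Among origin firing genes, Cdc7, Gins1 and Gins3 had positions, and Mcm10, Cdc45, Gins2 and Gins4 had 0. Gins3, a subunit of the GINS complex, had 79, of which 15 were called in both replicates, and its median level was 0.545. Its highest well-read position had 31 of 33 reads unconverted (0.939, Wilson interval 0.804 to 0.983). Cdc7, the kinase that starts firing, had 74 positions with a median level of 0.455, and Gins1 had 59 with 0.556. In Gins1, 16 of the 59 lay between 67 and 222 nt from the gene start, with a median level of 0.667.

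Among polymerase and primase genes, Pole had more positions than any other gene of the set. Pole encodes the catalytic subunit of DNA polymerase epsilon, the leading-strand polymerase, and its 278 positions gave it rank 112 of 7821 gene labels. They had a median level of 0.538, and 43 (15.5%) were called in both replicates. The highest well-read position had 19 of 21 reads unconverted (0.905, Wilson interval 0.711 to 0.973). Prim1, the catalytic primase subunit, had 89 positions with a median level of 0.481. The other genes of this group had few or 0. Pold2 had 2 positions with levels of 0.231 (3 of 13 reads) and 0.217 (5 of 23). Pole2 had 1 at 0.25 (3 of 12). Prim2, which has no strand entry, had 1 on the minus strand at 0.214 (3 of 14). Pola1, Pola2, Pold1 and Pold3 had 0.

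The clamp Pcna and the clamp loader subunit genes Rfc3, Rfc4 and Rfc5 had 0 positions, and all are on the minus strand. Rfc1, the large clamp loader subunit, had 2 positions with levels of 0.235 (4 of 17 reads) and 0.333 (4 of 12). Rfc2 had 97 plus-strand positions with a median level of 0.636, of which 6 (6.19%) were called in both replicates, the lowest such share among the 20 genes. One of these 6 had a level of 1 in both replicates, at about 21 reads used, and lay 10473 nt from the gene start.

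For single-strand binding and lagging-strand genes, Lig1 and Rpa2 carried nearly all positions. Lig1, the ligase that joins Okazaki fragments, had 140 with a median level of 0.459, and its highest well-read position had 25 of 34 reads unconverted (0.735, Wilson interval 0.569 to 0.854). Rpa2, a subunit of the single-strand binding protein RPA, had 54 with a median of 0.572. Fen1, the flap endonuclease, had 1 minus-strand position at 0.25 (3 of 12 reads), and Rpa1 and Rpa3 had 0. Among nucleotide supply genes, the ribonucleotide reductase genes Rrm2 and Rrm1 had 144 and 65 positions with median levels of 0.455 in Rrm2 and 0.444 in Rrm1, the lowest of the 20 genes, and the thymidine kinase gene Tk1 had 0. Rrm2 had 24.4 positions per kb, the densest gene of the set over its span of 5.89 kb. Its highest well-read position had 16 of 21 reads unconverted (0.762, interval 0.549 to 0.894). Over the 20 genes, the number of positions and the gene span had a Spearman's rho of 0.449, which is a description over genes of these libraries.

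**Figure D2:**
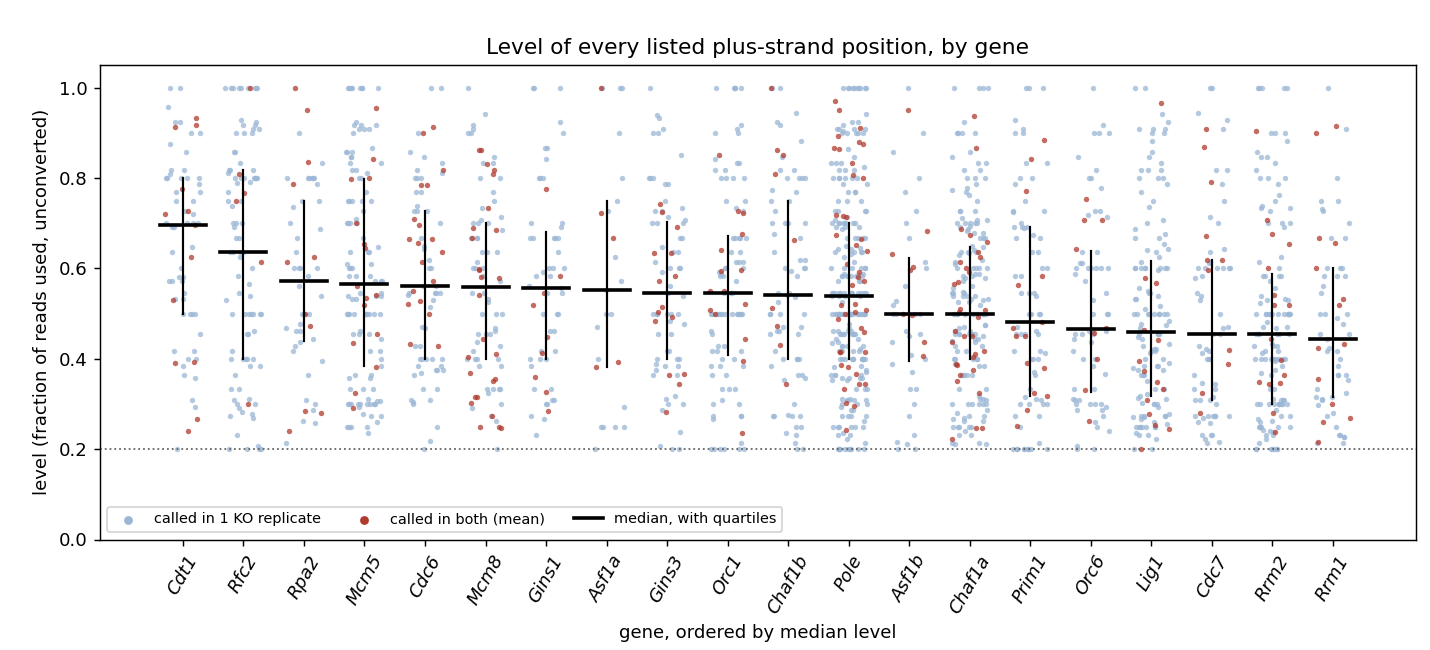
Level of each plus-strand position (y axis, fraction of reads used that were unconverted) in the 20 genes (x axis), with the median as a thick line and the quartiles as a thin one; the dotted line marks 0.2, the lowest level listed. Medians run from 0.697 in Cdt1 to 0.444 in Rrm1, and positions in every gene spread from near 0.2 to 1.

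Histone chaperone genes were the one group in which every gene had positions. All 4 are on the plus strand, where the background was 51.4% of protein-coding genes. In the whole set 17 of 17 plus-strand genes had positions, so this trait of the group cannot be told apart from strand. Chaf1a, the large subunit of CAF-1, which delivers histones H3 and H4 to newly copied DNA, had 200 positions, and Chaf1b, its middle subunit, had 79. The H3 and H4 chaperones Asf1a and Asf1b had 25 and 43. Median levels were 0.5 in Chaf1a, 0.542 in Chaf1b, 0.552 in Asf1a and 0.5 in Asf1b; no test was made between genes, whose positions share libraries. In Asf1a, 16 of the 25 lay between 5 and 294 nt from the gene start, and 1 of them had 29 of 29 reads unconverted (1, Wilson interval 0.883 to 1). In Asf1b, by contrast, 30 of the 43 lay in the last decile of the gene span. The highest well-read position of Chaf1a, which lies outside its dense stretch, had 21 of 27 reads unconverted (0.778, interval 0.592 to 0.894).

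The positions of Chaf1a fell into 12 groups separated by more than 300 nt, along a gene that runs from 56040416 to 56068026 on chromosome 17. The largest group, between 17.3 and 17.5 kb from the gene start, held 53 of the 200. Within it, a stretch of 99 nt from 56057777 to 56057875 held 35 positions, which is 17.5% of the gene's total. Their levels ran from 0.267 to 0.9 with a median of 0.533, against 0.5 for the other 165 positions of the gene. They were covered by 10 to 22 reads with a median of 13, against a median of 20 at the listed positions elsewhere in Chaf1a. Coverage is given only at listed positions, so the depth over the stretch as a whole is not known. The levels rested on 10 to 21 reads, and the lowest had 4 of 15 unconverted (Wilson interval 0.109 to 0.52) and the highest 9 of 10 (0.596 to 0.982).

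Both replicates made the call at 8 of the 35 positions, and at 24 of the 165 elsewhere in Chaf1a. Their levels in the replicates (lower and higher, since the table does not say which is which) were 0.538 and 0.6, 0.3 and 0.4, 0.312 and 0.524, 0.38 and 0.636, 0.45 and 0.534, 0.462 and 0.556, 0.546 and 0.636, and 0.4 and 0.5. The median difference was 0.097 and the greatest 0.256. With the first listed position of the stretch counted as base 1, every base from 47 to 54 and every base from 87 to 94 was listed, which makes a pair of runs of 8 consecutive bases. No other gene of the set had a run longer than 4, and over all gene labels with plus-strand positions the median longest run was 3 and the longest 13. Adjacent positions in a run differed in level. From base 47 to 54 the levels were 0.35, 0.545, 0.3, 0.5, 0.583, 0.636, 0.818 and 0.455. The bases of this stretch were not read, since it lies in none of the sequence windows used here.

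**Figure D3:**
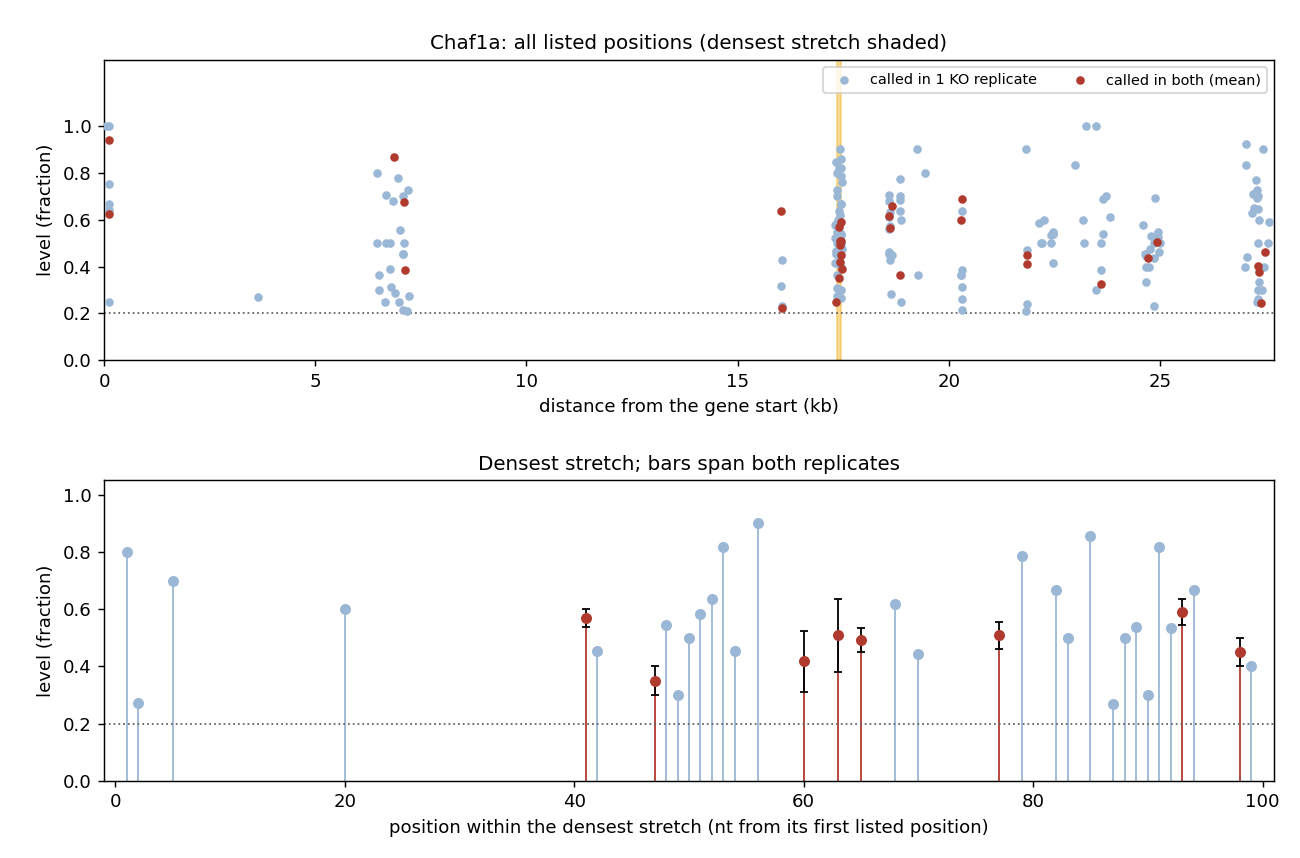
Level of each listed position of Chaf1a along the gene (upper panel, distance from the gene start in kb, densest stretch shaded) and within the densest stretch (lower panel, nt from its first listed position); black bars join the 2 KO replicates where both made the call. The 35 positions of the stretch lie between 0.267 and 0.9, and the 8 called in both replicates lie between 0.35 and 0.591.

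The other genes with plus-strand positions had fewer in their densest 100 nt, between 7 in Rpa2 and 17 in Gins3 and Orc1, and the 9 genes with minus-strand positions had 1 or 2. Pole reached 16 although it had more positions than Chaf1a in total. Over all gene labels with plus-strand positions the median was 11 and the 99th percentile 24. Chaf1a stood at rank 7 of 7821 labels. The 6 labels above it were Ins2 (44), Upf3a (39), Tgfb1 (38), Ins1 and Upf2 (37 each) and Iapp (36), of which Ins1, Ins2 and Iapp are islet hormone genes. The rank is a description. The stretch was singled out with these values known, so it was given no test. Requiring 20 covering reads, 20 reads used, a call in both replicates or no neighbour within 10 nt left at most 13, 12, 9 and 4 positions in any 100 nt of Chaf1a.

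**Figure D4:**
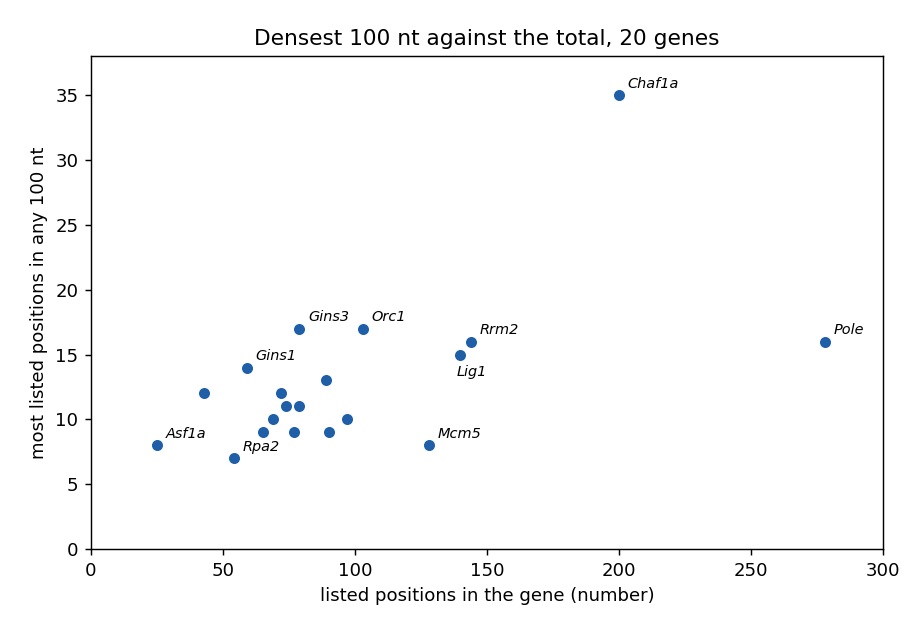
Most listed positions in any 100 nt (y axis) against all listed positions of the gene (x axis) for the 20 genes with plus-strand positions, 1 point per gene. Chaf1a stands at 35 with 200 positions in all, and the other genes lie between 7 and 17.

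Crowding was not limited to Chaf1a. Of the 1965 plus-strand positions, 1445 (73.5%) had another listed position within 10 nt on the same strand, against 70.5% of all labelled plus-strand positions. Directly next to another listed base stood 375 (19.1%), against 17.6%. By gene, the share within 10 nt ran from 44.6% in Rrm1 to 83.3% in Orc6. None of the 11 minus-strand positions had a neighbour within 10 nt.

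Along the genes, when the RefSeq span was cut into deciles of equal length, the last one held 311 of the 1965 plus-strand positions (15.8%, exact interval 14.2 to 17.5), against 28.9% in other genes. The first decile held 222 (11.3%, exact interval 9.93 to 12.8), against 8.24%, and decile 7 held 273 (13.9%), against 8.84%. The dense stretch of Chaf1a lies in decile 7. These shares pool genes of unequal counts, and the intervals cover counting error only, since positions of a gene share reads. By gene, the share in the last decile ran from 0% in Asf1a to 69.8% in Asf1b, with a median of 14.1%, so no 1 pattern held for the 20 genes. Gene spans include introns, and exons and untranslated regions were not analysed here.

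**Figure D5:**
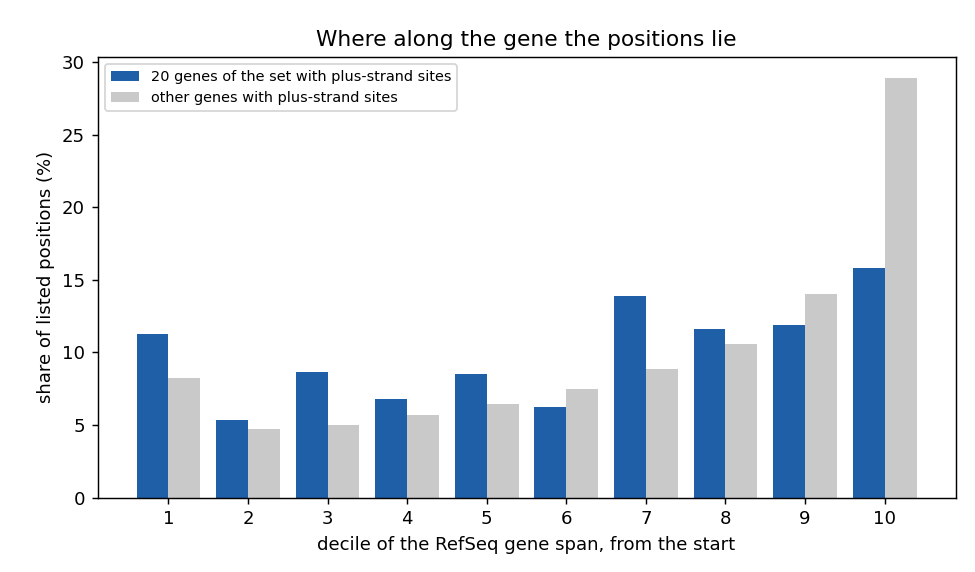
Share of listed plus-strand positions (y axis, %) in each decile of the RefSeq gene span from the start (x axis), for the 20 replication genes (left bar of each pair) and other genes (right bar). The last decile holds 15.8% in the 20 genes and 28.9% in other genes.

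Where both KO replicates made the call, their levels were close at most positions. The 308 such positions, 15.7% of the 1965 on the plus strand (exact interval 14.1 to 17.4), had a median level of 0.534 and a median difference between the replicates of 0.097, and 10% of them differed by more than 0.263. Over all labelled plus-strand positions the share was 14.4% (exact interval 14.3 to 14.5) and the median difference 0.1, so the replication genes were near the background in both. The median sample SD was 0.0686. Levels of 1 in both replicates were found at positions in Rfc2, Asf1a, Chaf1b and Rpa2. In Pole the highest such position had 0.94 and 1, in Lig1 0.934 and 1, and in Rrm1 0.909 and 0.923. The widest gap was in Mcm5, 3187 nt from the gene start, where the replicates had 0.213 and 0.909 at a mean coverage of 74 reads, of which about 11 were used. Only positions past the authors' filters in both replicates enter here, so these differences do not measure the full spread between libraries.

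Level and support varied with coverage. Plus-strand positions with 10 to 13 covering reads had a median level of 0.545, and 9.76% were called in both replicates. Those with 14 to 18 reads had 0.538 and 15.3%, and those with 19 to 25 had 0.529, with 86 of 431 called in both. At 26 to 137 reads the median level was 0.462, and 84 of 450 (18.7%) were called in both, so the share did not increase throughout. Spearman's rho between level and coverage was -0.134 over the 1965 positions, which share libraries and reads. At positions called in 1 replicate, the reads used were a median of 82.4% of the covering reads on the plus strand and 37.5% at the 11 minus-strand positions. The labels do not say which reads were left unused. The part of this loss in the low counts of minus-strand genes was not tested.

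A further list of 40 genes of the same pathway, chosen by function, had positions in 25, against 34.2% of all protein-coding genes. Of its 14 plus-strand genes 14 had positions, against a background of 51.4%, and of its 18 minus-strand genes 6 had them, against 18.5%. The fork protection gene Timeless led with 265, followed by Clspn with 250 and the checkpoint scaffold gene Topbp1 with 249, at median levels of 0.583, 0.5 and 0.5. Across the 40 genes, 14.8% of 2057 positions were called in both replicates and the median level was 0.5, against 14.2% and 0.526 over the whole table.

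As checks of the labels, Tet2 had 1 position, on the minus strand of chromosome 3, with 3 of 11 reads unconverted, which says nothing of the knockout. Myeloid and leukemia progenitor genes had positions in 9 of 10 cases, against 34.2% of all protein-coding genes, the exception being the minus-strand gene Ctsg. Of the 10, 7 had a plus-strand entry and 2 had no strand entry. All 7 plus-strand genes had positions, against a background of 51.4% of plus-strand protein-coding genes. Markers of T cells (4 genes), B cells (3) and erythroid cells (3) had 0 positions each. Only 2 of the T cell, 1 of the B cell and 1 of the erythroid markers had a plus-strand entry. The background for plus-strand protein-coding genes was 51.4%. The other markers are on the minus strand or had no strand entry, so these zeros are a weak check of cell type. The 6 islet hormone genes, which a leukemia line does not normally express, had 593 positions, 64.8% of them called in both replicates. Their part in the values above was not tested, and 0 of the replication gene positions carried a label of theirs.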

How the data were processed

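Poly(A) RNA of 2 KO and 2 WT samples was bisulfite-converted, per the labels' protocols. The submitters' processing notes name mm10. Neither aligner nor caller is named there. The deposited table gives, per file headers, covering and unconverted reads, here treated as a score because the authors averaged and rounded them where both KO replicates made the call. The deposited level is a fraction between 0 and 1. The deposited combined p-values of the methylation state reached 0.000114 at most and were not used further. Reads used were taken as unconverted reads over the level, which gave whole reads at 100% of positions called in 1 replicate (tolerance 0.0006) and is approximate elsewhere. The SD column was taken to divide by n, since levels of both replicates were then whole-read fractions at 83.1% of 8755 low-depth positions, against 6.23% with n - 1 (tolerance 0.0012). Coverage in the table ran from 10 to 721 reads.

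Genes were matched by label, and 7806 of 7821 labels matched a RefSeq symbol. Spans, strands and sequences came from RefSeq (GRCm38.p6). A position belonged to a gene when its comma-separated labels included it. Dense stretches were the most positions in 100 nt. Wilson and exact (Clopper-Pearson) 95% intervals cover counting error only. Named were, in each of 8 role lists, the gene with the most positions and the one with the highest position at 20 or more reads used, plus Chaf1a, Tet2 and minus-strand genes with positions; other genes were named to account for the whole set. The genes, lists and the Chaf1a stretch were chosen with earlier results of these data known. The reading of bases was added after the data were examined. With no WT or single-library values, no test between groups was made. The search for dense stretches and the SD check were tested on simulated data. Python 3.11.15, pandas 2.3.3, scipy 1.17.1 and statsmodels 0.14.6 were used.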

Additional observations from a re-analysis of the deposited data

How the results depend on the processing

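The 7 summary values were recomputed under 5 alternatives, and 23 of the 34 values stayed within 1.5 times the count, the replicate SD of the level (0.0686) or the interval of the share. All 17 plus-strand genes kept a position under each alternative. At 20 covering reads, 825 positions were left, 18.8% of them were called in both replicates, and the densest 100 nt of Chaf1a held 13. At 20 or more reads used, 312 positions were left, the minus-strand genes with a position numbered 2, and the densest 100 nt of Chaf1a held 12. With a call in both KO replicates required, 308 positions, 0 minus-strand genes and 9 positions in the densest 100 nt of Chaf1a were left. Without positions that have a neighbour within 10 nt, 531 positions were left and the densest 100 nt of Chaf1a held 4. The densest 100 nt was searched again under each setting, so it need not be the stretch of 35 positions described above. Of those 35, 8 were called in both replicates and 34 had a neighbour within 10 nt. Each of these settings removes positions by its construction. Keeping only positions with the label of 1 gene changed 0 values. No position of these genes carried a second label, so this alternative removed nothing and could not change a value. Its 7 values are counted among the 23 and tell nothing of stability. No paired analysis was possible because the table has no WT values and no values of a single library, and for the same reason a replicate could not be left out. Depth limits single levels, which rest on a median of 12 reads used.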
